A study of Mus musculus with 16 samples.

Results

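Genes of the cell cycle and of DNA replication were followed in the colon wall of mice that differed in their gut microbiota, as a set of 49 genes over 16 arrays. They were chosen by their role, as genes that load and fire replication origins, supply deoxynucleotides, drive the cycle as cyclins and kinases, or build the mitotic spindle and chromosomes. Of the 49, 35 had a probe named by the platform's annotation and 34 had a probe that could be tested, out of 9862 genes tested in all. Those not analysed here for want of a named probe were Gins1, Gmnn, Ccna2, Ccnb1, Ccnb2, Cks1b, Cks2, Aurkb, Ttk, Bub1, Ube2c, Cenpe, Racgap1 and Mki67. The probe of Tpx2, a spindle assembly factor, was above background on 3 of 16 arrays and was not tested.

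The arrays are Illumina mouse BeadChips hybridized with total RNA of proximal colon smooth muscle, with 4 arrays in each of 4 groups of wild type C57Bl/6 mice. GF mice were germ-free and SPF mice were specific pathogen-free, with a normal gut microbiota. C/-Lop mice were GF mice gavaged with cecal contents of control donors. C/+Lop mice were GF mice gavaged with cecal contents of donors with pharmacologically induced constipation (PIC). Loperamide, an opioid receptor agonist that slows transit, was given to those donors at 0.1% in the drinking water for 7 days at an age of 8 to 10 weeks. Recipients were age-matched GF mice that received no loperamide after colonization and were killed 4 weeks later. The study's methods put their age at gavage at 8 to 10 weeks, while its results give an older age. The ages of the GF and SPF mice at sacrifice and the housing of each animal are not given in the sources used here, and the labels do not say whether each array holds a different animal. The p-values therefore rest on differences among these arrays and may reflect technical spread.

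A dividing cell first commits to the cycle in G1 under D-type cyclins, then licenses its replication origins with the MCM helicase and copies its DNA in S phase, and then condenses and separates its chromosomes in mitosis. Transcripts of these genes rise together, in G1/S under E2F factors and in G2/M under the MuvB complex with B-Myb and Foxm1, and they are low in resting cells. In the colon the dividing cells are mostly the progenitors of the crypt epithelium, with some immune and stromal cells, while mature smooth muscle is mostly at rest.

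Many promoters of such genes hold the letters through which that timing is known to work. The 6 printed here show the G2/M form, the G1/S form and a promoter with neither. Sequences are those of RefSeq on GRCm38.p6, from 250 bases before to 50 after the start of transcription, 5′ to 3′ on the gene's own strand. Capitals mark, on either strand, the cell cycle homology region (CHR; TTTGAA or TTTAAA), the E2F site (TTCCCGC or TTGGCGC) and the CCAAT box (CCAAT). The second E2F form read with an A before it also holds the reverse of the CCAAT box, so that both can lie in the same letters.
Plk1 (chr7:122159185-122159484, plus strand): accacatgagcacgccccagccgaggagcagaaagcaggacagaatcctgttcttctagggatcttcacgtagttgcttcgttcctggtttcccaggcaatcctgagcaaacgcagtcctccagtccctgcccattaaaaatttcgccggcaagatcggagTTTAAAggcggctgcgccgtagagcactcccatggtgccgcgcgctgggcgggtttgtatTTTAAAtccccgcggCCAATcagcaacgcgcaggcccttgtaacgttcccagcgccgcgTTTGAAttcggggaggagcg
Cdc20 (chr4:118437294-118437593, minus strand): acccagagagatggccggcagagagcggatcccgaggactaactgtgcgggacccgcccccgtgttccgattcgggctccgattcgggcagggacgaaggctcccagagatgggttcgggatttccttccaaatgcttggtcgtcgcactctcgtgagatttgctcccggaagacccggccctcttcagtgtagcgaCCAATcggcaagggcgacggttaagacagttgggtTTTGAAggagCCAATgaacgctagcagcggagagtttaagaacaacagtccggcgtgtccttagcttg
Cdk1 (chr10:69352863-69353162, minus strand): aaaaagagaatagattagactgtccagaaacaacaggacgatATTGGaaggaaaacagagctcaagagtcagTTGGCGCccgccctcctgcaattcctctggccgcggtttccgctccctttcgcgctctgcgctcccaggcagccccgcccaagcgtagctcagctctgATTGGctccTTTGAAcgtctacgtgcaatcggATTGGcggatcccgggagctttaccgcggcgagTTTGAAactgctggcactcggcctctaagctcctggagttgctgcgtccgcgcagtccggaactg
Mcm6 (chr1:128359656-128359955, minus strand): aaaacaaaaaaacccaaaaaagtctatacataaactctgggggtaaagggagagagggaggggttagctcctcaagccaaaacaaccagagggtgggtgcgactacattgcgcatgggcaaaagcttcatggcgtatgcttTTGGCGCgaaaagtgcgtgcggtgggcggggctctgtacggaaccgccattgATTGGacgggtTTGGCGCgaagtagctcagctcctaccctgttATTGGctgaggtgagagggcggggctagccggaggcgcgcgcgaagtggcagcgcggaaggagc
Cdc45 (chr16:18811923-18812222, minus strand): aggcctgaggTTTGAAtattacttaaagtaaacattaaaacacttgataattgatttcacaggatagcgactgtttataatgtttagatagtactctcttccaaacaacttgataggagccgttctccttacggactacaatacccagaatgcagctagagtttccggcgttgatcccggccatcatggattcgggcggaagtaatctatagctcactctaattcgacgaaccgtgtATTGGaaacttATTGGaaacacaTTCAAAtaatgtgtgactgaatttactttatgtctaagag
Tyms (chr5:30073576-30073875, minus strand): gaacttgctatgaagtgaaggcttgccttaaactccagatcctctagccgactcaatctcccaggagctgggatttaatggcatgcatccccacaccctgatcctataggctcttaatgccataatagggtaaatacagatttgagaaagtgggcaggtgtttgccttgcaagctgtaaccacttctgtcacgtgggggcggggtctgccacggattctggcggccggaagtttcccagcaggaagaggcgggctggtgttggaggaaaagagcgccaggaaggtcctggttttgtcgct

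Of the 49 genes, 39 had a promoter in the table. The CHR letters stood in 26 of 39 (66.7%), against 27.8% of all 27025 genes with a promoter of the same length. The E2F letters stood in 10 (25.6%, against 6.93%) and the CCAAT box in 31 (79.5%, against 37.9%). A CHR together with a CCAAT box was present in 23 (59%, against 10.9%). Among the 17 promoters of mitotic genes, 13 held a CHR and 0 held the E2F letters. Among the 12 promoters of replication and nucleotide supply genes, 5 held a CHR and 6 held E2F letters. Plk1 and Cdc20, both mitotic, carried CHR letters close to the start, and Mcm6, a helicase subunit, carried E2F letters at 2 places. Cdk1 carried both, and the printed stretch of Tyms carried none of the letters searched. A match of letters is a description of the sequence only.

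Values are log2 intensities after background correction and quantile normalization, and a difference between groups is a difference of group means of log2 values with its standard error (SE) from limma. Where a gene had several kept probes it is represented by the brightest, and a gene is called where the limma adjusted p over all 14102 kept probes is under 0.05. Of the 34 genes, 25 had 1 kept probe and 9 had several, and 29 were above background on all 16 arrays. A probe's value rested on 21 to 67 beads (median 39), and the standard error over beads was 1.48 to 7.73% of the intensity (median 3.13%). Precision is limited by the number of arrays, with 4 arrays in each group and 12 residual degrees of freedom. Median raw intensity ran from 117 to 168 across arrays and 12364 to 13942 probes were detected. Markers of smooth muscle (10 genes, mean log2 level 11.16 to 12.53 across arrays) and of colonic epithelium (12 genes, 10.96 to 11.83) were both high on every array, so the labelled smooth muscle also held mucosal transcripts. In such tissue fewer dividing cells and less of a transcript per cell cannot be told apart.

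Most of the variance of these genes lay within the groups. The median share of variance between groups was 24.9%, against 39.9% for all genes. For 31 of the 34 the largest gap between group means was smaller than the range of the 4 GF arrays, and for 31 it was smaller than the range of the 4 SPF arrays. Means of 4 arrays vary less than single arrays, so high counts of this kind need no trait of these genes. The same counts were not made over all genes. The median pooled SD within groups was 0.27 for these genes and 0.20 for all 9862 genes. The share of variance between groups was highest for Tyms (64.7%), which makes thymidylate, and Ccnd1 (59.1%), the G1 cyclin D1, and it was 0.804% for Kif22, a chromosome-arm kinesin.

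**Figure D1:**
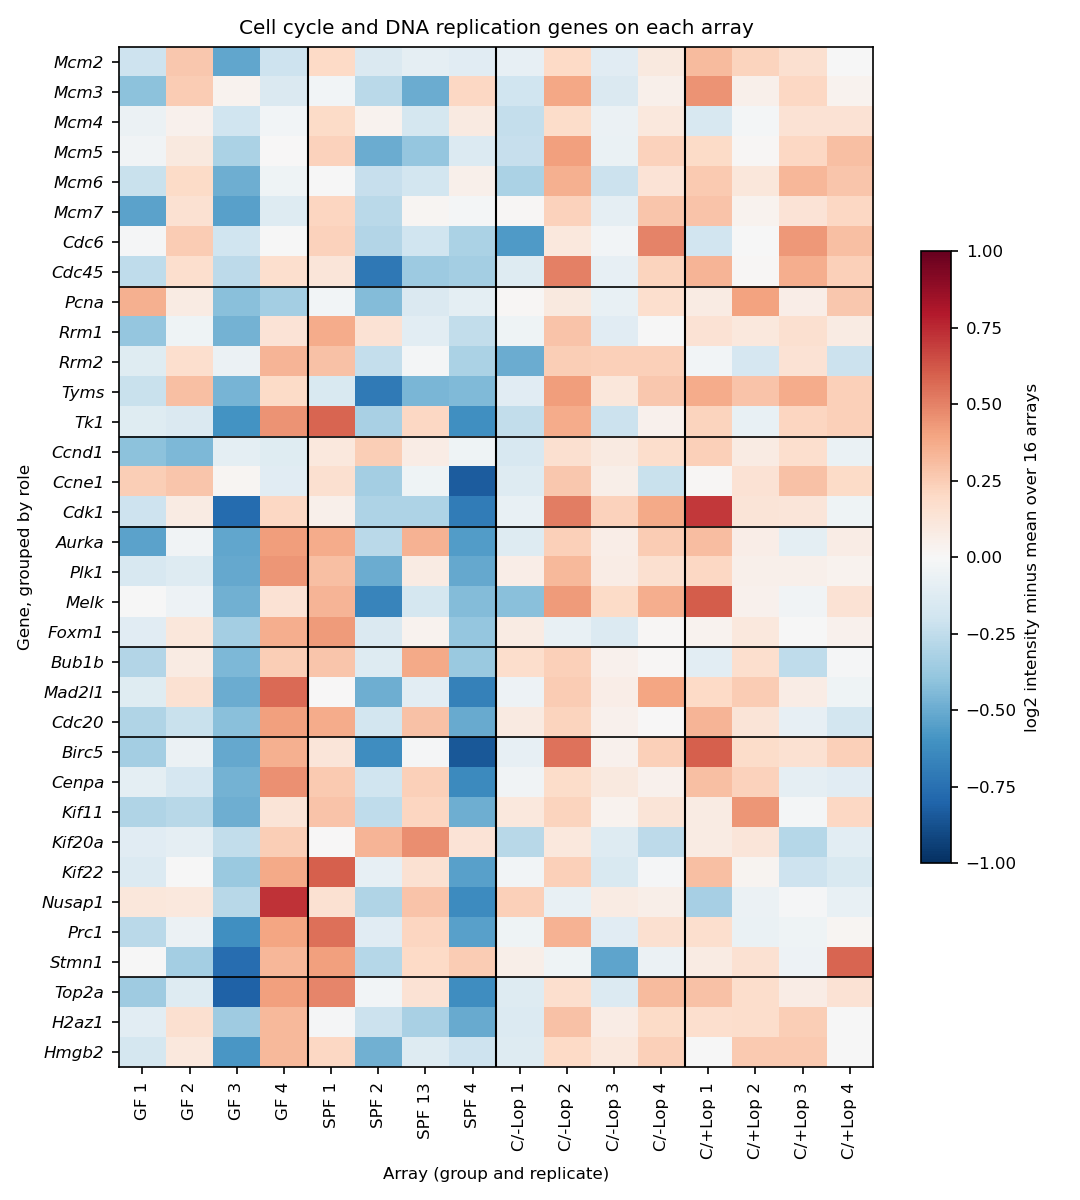
Log2 intensity of the 34 tested genes (rows, by role) on each of the 16 arrays (columns, by group and replicate), less the gene's mean over all arrays. The columns of GF replicate 3 and SPF replicate 4 are mostly blue and those of GF replicate 4 and SPF replicate 1 mostly red, while the recipient columns vary less.

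The spread was not the same in every group. The median SD of the 34 genes was 0.32 in both GF and SPF mice, against 0.19 in C/-Lop and 0.15 in C/+Lop mice. Over all genes the corresponding medians were 0.18, 0.20, 0.15 and 0.15, and the excess over all genes was largest in GF and SPF mice. The SD was larger in GF mice than in both recipient groups for 26 of 34 genes, and larger in SPF mice than in both for 27. The same counts were not made over all genes. These are descriptions of 4 arrays each and were not tested.

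Within GF and SPF mice most of the genes were high or low on the same arrays, where values of an array come from the same RNA. GF replicate 4 was the highest GF array for 22 of 34 genes and GF replicate 3 the lowest for 29. Over all genes these arrays were the highest in 19.9% and the lowest in 30.9%. SPF replicate 1 was the highest SPF array for 28 of 34 (25.5% of all genes), and SPF replicate 4 was the lowest for 21 (27.8% of all genes). For the 15 mitotic genes GF replicate 4 was highest for 15 and GF replicate 3 lowest for 14. For the 13 genes of replication and nucleotide supply, GF replicate 2 was instead the highest GF array for 9 and GF replicate 3 the lowest for 11.

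The mean log2 level of the 15 mitotic genes was 7.59, 7.70, 7.30 and 8.14 on GF replicates 1 to 4. It was 8.06, 7.51, 7.94 and 7.32 on SPF replicates 1, 2, 13 and 4, and lay between 7.70 and 7.98 on all 8 recipient arrays. The recipient arrays thus lay inside the ranges of GF and SPF mice. On the same SPF arrays the smooth muscle markers had mean levels of 11.81, 12.53, 11.83 and 12.51, and the epithelial markers 11.41, 10.96, 11.53 and 11.13. SPF replicates 2 and 4, low in mitotic genes, were high in smooth muscle and low in epithelial markers. GF replicate 3, the lowest GF array in mitotic genes, had the highest GF level of smooth muscle markers (11.996), while its epithelial level (11.57) was close to that of GF replicate 4 (11.56), the highest in mitotic genes. Red blood cell markers stood at 9.42 on GF replicate 3 and 9.82 on SPF replicate 4, the highest in their groups. Markers of crypt progenitors (9 genes) ranged from 7.60 to 7.90 in GF mice, from 7.71 to 8.07 in SPF mice and from 7.82 to 7.99 in recipients. The part of these cell types in the spread of the cell cycle genes was not tested.

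**Figure D2:**
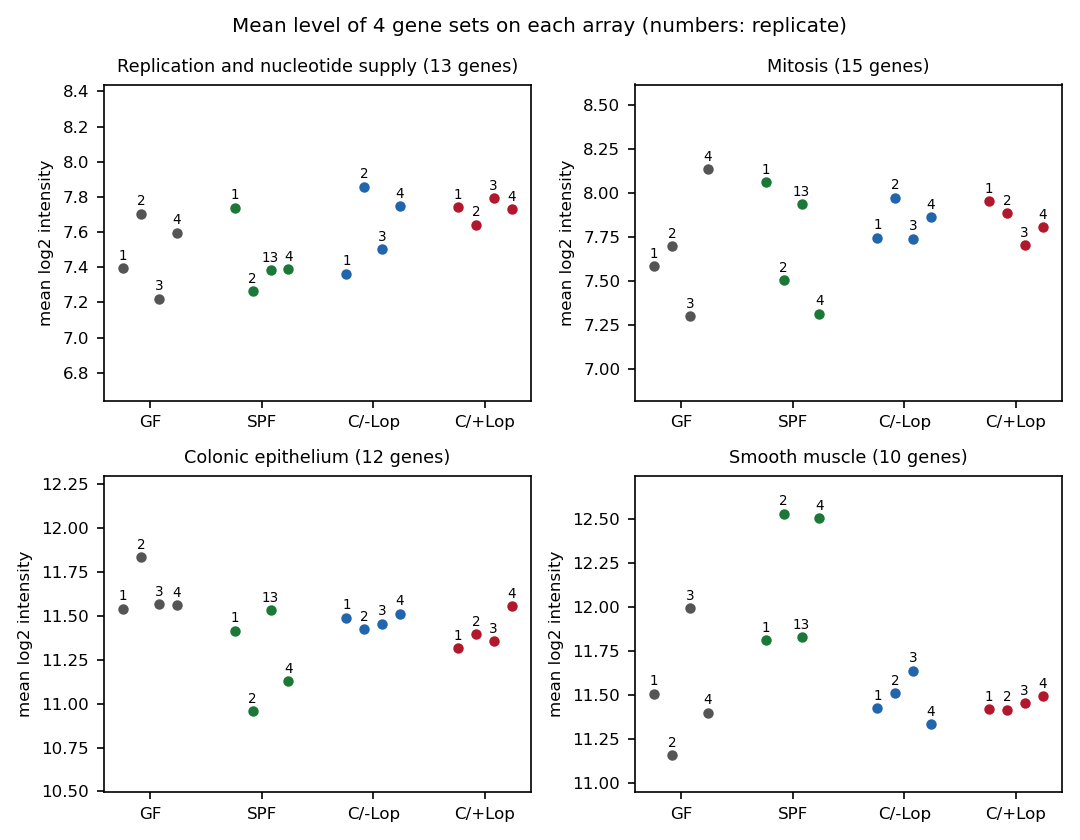
Mean log2 intensity (vertical axis) on each array of the 13 genes of replication and nucleotide supply, the 15 mitotic genes, and the markers of colonic epithelium and smooth muscle, by group (horizontal axis), each point being an array with its replicate number. In mitotic genes GF replicates 3 and 4 and SPF replicates 4 and 1 mark the ends of their groups, and SPF replicates 2 and 4 stand high in smooth muscle and low in epithelium.

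To compare mice with and without a microbiota, SPF was set against GF. Of 34 genes 1 was called higher, Ccnd1, and 0 lower, a share below the 20.5% of all 9862 genes called in either direction. At an unadjusted p under 0.05 there was 1 higher and 1 lower, where 18.7% of all genes were higher and 16.6% lower. Only for Ccnd1 were all SPF arrays above all GF arrays, 1 of 34 genes, where 9.17% of all genes did so. The median difference of the 34 was -0.02, against 0.01 for all genes, with 16 above 0 and 18 below. The 95% intervals of single genes reached from -0.76 to 0.80 at their outermost bounds, so that differences of that size in a single gene lie within what 4 arrays a group allow. With the epithelial marker level as a covariate the median was 0.18, and without SPF replicates 2 and 4 it was 0.21. Leaving out single arrays moved it from -0.13 (without SPF replicate 1) to 0.10 (without GF replicate 4), so that its sign rested on single arrays. On the same arrays 5 of 12 epithelial markers were called lower and 7 of 10 smooth muscle markers higher in SPF mice, 2 of 9 crypt progenitor, 6 of 9 B and plasma cell, 3 of 7 macrophage and 4 of 7 fibroblast markers were called higher, and their part in these values was not tested.

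To follow colonization of GF mice, each recipient group was set against the same GF arrays. In C/-Lop minus GF 0 of 34 genes were called by limma (2.76% of all genes), and the median was 0.16, against -0.01 for all genes. At an unadjusted p under 0.05 there were 3 higher, near the 8.74% of all genes, and 0 lower (8.99% of all genes). In C/+Lop minus GF 0 were called by limma (7.19% of all genes), and the median was 0.24, against -0.01. At an unadjusted p under 0.05 there were 7 higher (11.2% of all genes) and 0 lower (12.9% of all genes). The t-test that the study's methods name for its remaining data called 0 in both. Differences were above 0 for 28 genes in C/-Lop and 32 in C/+Lop mice, where 4774 and 4766 of 9862 genes were. The exceptions in C/+Lop mice were Nusap1 (-0.28) and Rrm2 (-0.15). Both medians depended on single GF arrays, and were 0.06 and 0.11 without GF replicate 3 and 0.29 and 0.34 without GF replicate 4. On the same arrays 4 of 9 B and plasma cell markers were called higher in both recipient groups, as were 1 of 7 macrophage markers in C/-Lop and 2 of 7 in C/+Lop mice. Of the 9 crypt progenitor markers 1 was called higher in C/+Lop mice and 0 in C/-Lop mice, no epithelial or smooth muscle marker was called in either group, and the part of these cell types in the differences was not tested. No gene of the 34 had all its C/-Lop arrays above all GF arrays (6.39% of all genes), and only Ccnd1 had all its C/+Lop arrays there (8.02% of all genes).

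To compare the 2 kinds of donor microbiota, C/+Lop was set against C/-Lop. No member was called by limma, and 0% of all genes were. At an unadjusted p under 0.05 there were also 0 of 34 in both directions (1.61% of all genes were higher and 2.17% lower), and that t-test called 0. The median difference was 0.06 (0.00 over all genes), and it was -0.02 without C/-Lop replicate 1 and 0.10 without C/-Lop replicate 2. The largest differences were in Stmn1 (0.34), which destabilizes microtubules, Mcm6 (0.26) and, in the other direction, Nusap1 (-0.20). The outermost 95% bounds of single genes were -0.62 and 0.80. Values on the arrays of both groups overlapped for all 34 genes, while 1.84% of all genes had every C/+Lop array above every C/-Lop array.

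To set colonized mice beside mice with a normal gut microbiota, each recipient group was compared with the same SPF arrays. In C/-Lop minus SPF 1 of 34 genes was called higher and 0 lower (16.4% of all genes were called), with a median of 0.14 (0.00 over all genes) and 6 higher and 1 lower at an unadjusted p under 0.05 (15% and 18.1% of all genes). In C/+Lop minus SPF 2 were called higher and 0 lower (21.1% of all genes were called), with a median of 0.20 (-0.01 over all genes) and 10 higher and 0 lower at an unadjusted p under 0.05 (15.5% and 19.7% of all genes). Both shares of called genes were below those of all genes. All C/-Lop arrays lay above all SPF arrays for 1 of 34 genes (9.07% of all genes), namely Tyms. All C/+Lop arrays lay above all SPF arrays for 5 of 34 genes (9.97% of all genes), namely Tyms, Mcm6, Pcna, Birc5 and H2az1. This holds for the brightest probes, and on every dimmer probe of Mcm6 and of Birc5 these groups overlapped. The highest group mean was in C/+Lop mice for 22 genes, in C/-Lop for 7, in SPF for 3 and in GF for 2. The same count was not made over all genes. C/+Lop and C/-Lop values overlapped for all 34 genes, with a median difference of 0.06. The medians against SPF mice depended on the scaling and on single arrays. With arrays scaled to a common median the members' medians were -0.08 and -0.01, beside medians over all probes of -0.14 and -0.13. Smooth muscle markers were called lower in recipients than in SPF mice for 7 of 10 genes in both comparisons. So were 4 of 7 fibroblast and 1 of 9 B and plasma cell markers, while 1 of 7 macrophage markers was called higher. The part of these cell types in the differences was not tested. Leaving out SPF replicate 1, the SPF array highest in these genes, gave 5 called members and a median of 0.26 in C/-Lop minus SPF, and 7 and 0.35 in C/+Lop minus SPF. Without SPF replicate 4 the medians were 0.04 and 0.11, and the former was 0.08 without SPF replicate 2 and 0.08 without C/-Lop replicate 2.

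**Figure D3:**
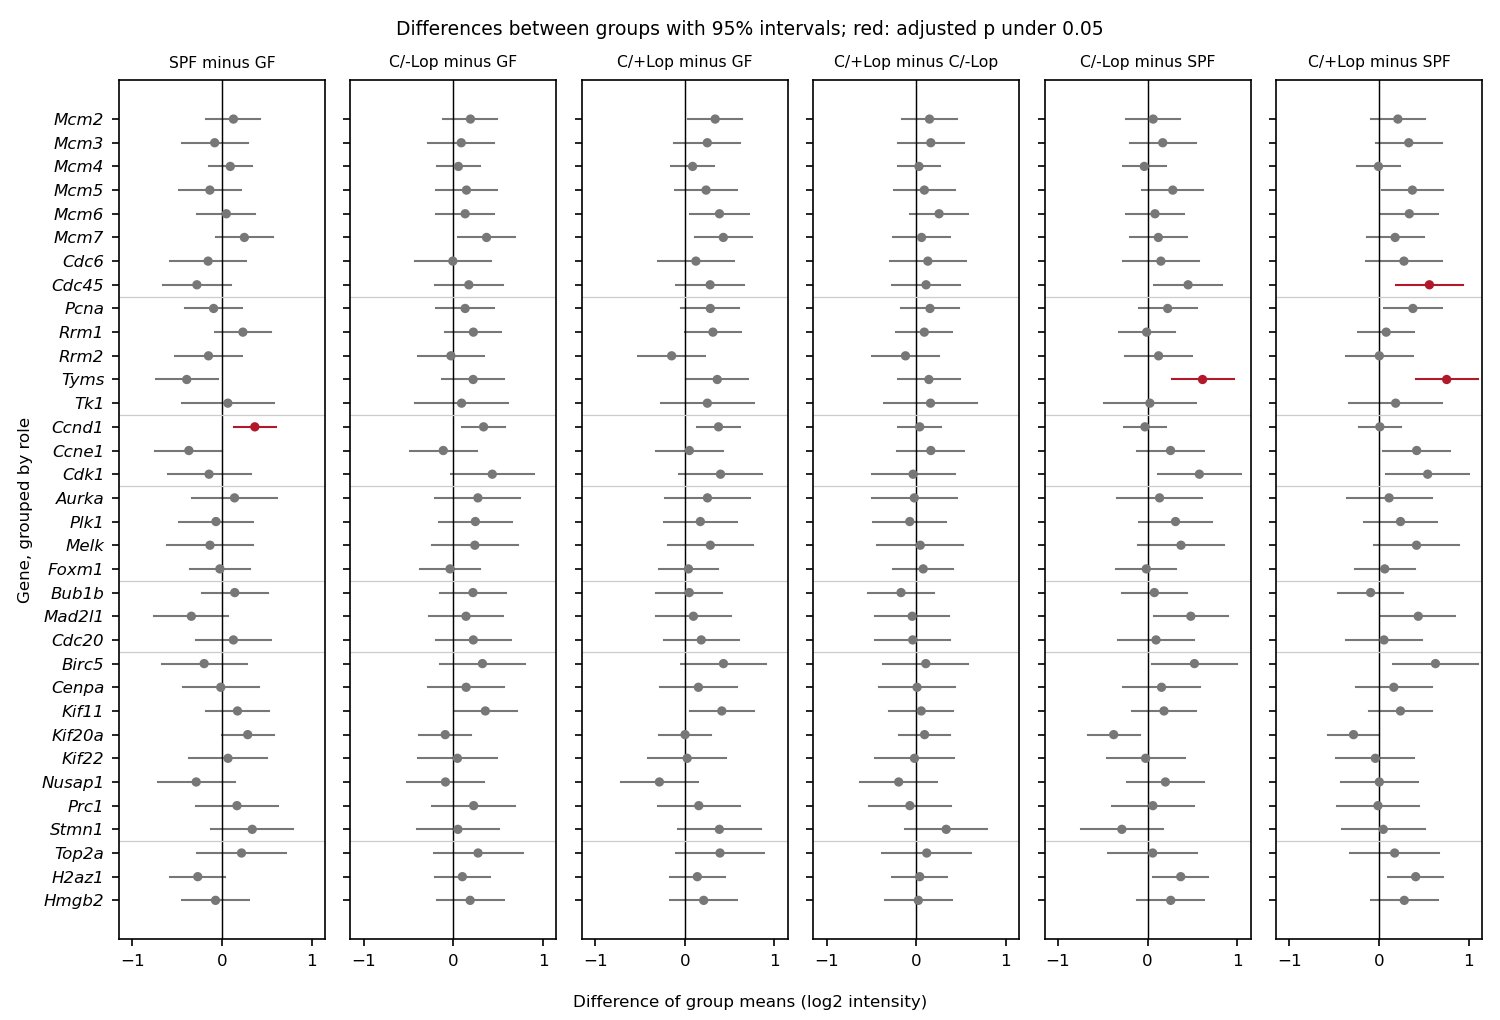
Difference of group means on the log2 scale (horizontal axis) with its 95% interval for the 34 genes (rows, by role) in the 6 comparisons (panels), in red where the adjusted p is under 0.05. The red points are Ccnd1 in SPF minus GF, Tyms in C/-Lop minus SPF, and Tyms and Cdc45 in C/+Lop minus SPF, and the intervals between recipient groups all include 0.

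Ccnd1, by its brightest probe, was the gene that separated SPF from GF mice. Cyclin D1 with its kinases phosphorylates the retinoblastoma protein and opens G1. Its log2 values were 10.85, 10.82, 11.17 and 11.14 in GF mice against 11.37, 11.51, 11.34 and 11.23 in SPF mice. They were 11.10, 11.43, 11.36 and 11.44 in C/-Lop and 11.50, 11.35, 11.43 and 11.20 in C/+Lop mice. On this probe all SPF and C/+Lop arrays lay above all GF arrays, and C/-Lop replicate 1 fell within the GF range. On both dimmer probes SPF replicate 4 (10.72 and 7.93) lay within the GF range. SPF minus GF was 0.37 (SE 0.11, limma adjusted p = 0.0320), a 1.29-fold higher level. C/+Lop minus GF was 0.38 (adjusted p = 0.0527) and C/-Lop minus GF 0.34 (adjusted p = 0.123), both short of the threshold. These 3 differences share the GF arrays. A second, dimmer Ccnd1 probe passed in C/+Lop mice against GF mice (0.39, adjusted p = 0.0233) and not in SPF mice (0.27). Against GF mice the remaining probe gave 0.11 in C/+Lop and -0.04 in C/-Lop mice. The probes thus do not make the same calls. With the epithelial marker level of each array as a covariate, the SPF minus GF difference of the brightest probe was 0.22 (adjusted p = 0.493). It was also short of the threshold without GF replicate 1, GF replicate 2, SPF replicate 1 or SPF replicate 2 (0.31 to 0.36, adjusted p from 0.0515 to 0.104), and the call of the dimmer probe was lost without any 1 of GF replicates 1 to 3 and C/+Lop replicates 1 to 3.

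Ccne1 and Cdk1 act after Ccnd1, the former as the cyclin of S phase entry and the latter as the kinase of mitotic entry. The values of Cdk1 were 8.52, 8.81, 7.96 and 8.94 in GF mice against 8.78, 8.42, 8.42 and 8.03 in SPF mice. They were 8.66, 9.24, 8.96 and 9.11 in C/-Lop and 9.43, 8.86, 8.85 and 8.69 in C/+Lop mice. C/+Lop replicate 1 and C/-Lop replicate 2 were the highest arrays, and the recipient groups overlapped with GF and SPF mice. Recipient minus SPF was 0.58 for C/-Lop (adjusted p = 0.0764) and 0.54 for C/+Lop (adjusted p = 0.0856), neither past the threshold. For Ccne1 SPF minus GF was -0.37 and C/+Lop minus SPF 0.42, also short of it.

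Tyms was the member with the most variance between groups. Thymidylate synthase makes the thymidylate of DNA from deoxyuridylate. Its values were 9.06, 9.58, 8.81 and 9.47 in GF mice against 9.12, 8.57, 8.82 and 8.83 in SPF mice. They were 9.16, 9.70, 9.39 and 9.55 in C/-Lop and 9.64, 9.56, 9.65 and 9.52 in C/+Lop mice. Every recipient array lay above every SPF array, with C/-Lop replicate 1 nearest to SPF replicate 1, while GF arrays overlapped with both. C/-Lop minus SPF was 0.61 (SE 0.16, limma adjusted p = 0.0198, 1.53-fold) and C/+Lop minus SPF 0.76 (SE 0.16, adjusted p = 0.00591, 1.69-fold). SPF minus GF was -0.39 (adjusted p = 0.0986), which did not pass. The dimmer Tyms probe gave 0.41 and 0.46 against SPF mice and was not called. Without SPF replicates 2 and 4 together, the arrays richest in smooth muscle markers, the 2 differences were 0.48 (adjusted p = 0.170) and 0.62 (adjusted p = 0.0705), in the same direction and short of the threshold. The call against C/-Lop mice was also lost without SPF replicate 2, C/-Lop replicate 2 or C/-Lop replicate 4 (0.52 to 0.58, adjusted p from 0.0554 to 0.0716).

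**Figure D4:**
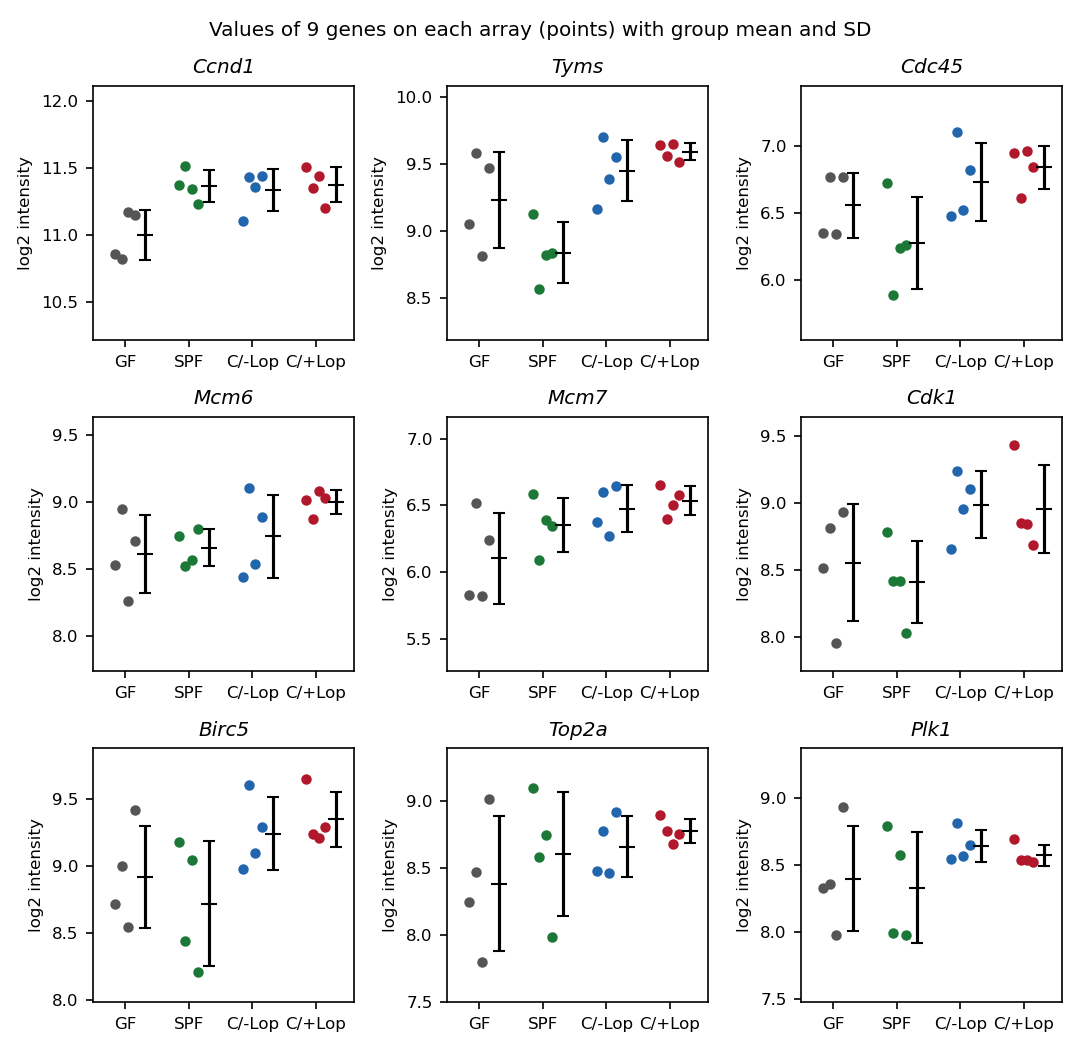
Log2 intensity (vertical axis, centred on each gene, with the same span in every panel) of Ccnd1, Tyms, Cdc45, Mcm6, Mcm7, Cdk1, Birc5, Top2a and Plk1 on each array by group, with the group mean and SD beside the points. For Ccnd1 the 4 SPF points lie above the 4 GF points, for Tyms the 8 recipient points lie above the 4 SPF points, and for the other 7 the GF and SPF points span most of the range.

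The other genes of nucleotide supply and the DNA clamp were not called in any comparison. Pcna, the sliding clamp of DNA polymerases, was above background on 13 of 16 arrays. C/+Lop minus SPF for Pcna was 0.38 (adjusted p = 0.0853), with values of 5.33, 5.65, 5.32 and 5.52 against 5.22, 4.82, 5.10 and 5.15. The C/+Lop arrays lay above the SPF arrays, near the floor of detection. Tk1, which salvages thymidine, differed by -0.06 to 0.25 over its 2 probes and the comparisons with GF mice. For Rrm2, the small subunit of ribonucleotide reductase, the probes gave opposite signs in both recipient groups against GF mice (from -0.15 to 0.21). Rrm1, the large subunit, was 0.31 higher in mean in C/+Lop than in GF mice, which did not pass.

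Among the origin genes Cdc45, the factor that turns the loaded MCM ring into an active helicase, was called in C/+Lop mice against SPF mice. Its values were 6.35, 6.77, 6.35 and 6.77 in GF mice against 6.73, 5.89, 6.24 and 6.26 in SPF mice. They were 6.48, 7.11, 6.52 and 6.82 in C/-Lop and 6.95, 6.62, 6.97 and 6.84 in C/+Lop mice. The C/+Lop and SPF groups overlapped through SPF replicate 1, and SPF replicate 2 was the lowest of all arrays. C/+Lop minus SPF was 0.56 (SE 0.18, limma adjusted p = 0.0341, 1.48-fold) and C/-Lop minus SPF 0.45 (adjusted p = 0.0866). Without SPF replicate 2 the former was 0.43 (adjusted p = 0.118), and it was also lost without SPF replicate 13, SPF replicate 4 or C/+Lop replicates 1, 3 or 4 (0.52 to 0.56, adjusted p from 0.0548 to 0.0867).

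The MCM helicase has 6 subunits, of which Mcm2, Mcm3, Mcm4, Mcm5, Mcm6 and Mcm7 were all measured and none was called. Mcm7 in C/+Lop minus GF was 0.43 (SE 0.15, adjusted p = 0.0908), with values of 6.65, 6.40, 6.51 and 6.58 against 5.83, 6.52, 5.82 and 6.24. GF replicates 1 and 3 were low and GF replicate 2 lay within the C/+Lop range. Mcm6 in C/+Lop minus GF was 0.39 (adjusted p = 0.133), and its C/+Lop arrays (9.02, 8.87, 9.08 and 9.03) were all above its SPF arrays (8.75, 8.53, 8.57 and 8.80), with a difference of 0.34 (adjusted p = 0.125). Over its 3 probes C/+Lop minus GF ran from 0.03 to 0.39, and on the dimmer Mcm6 probes the C/+Lop and SPF arrays overlapped. Mcm4 had group means of 10.14 in GF, 10.23 in SPF, 10.20 in C/-Lop and 10.23 in C/+Lop mice. All 8 origin genes, Cdc6 among them, had positive differences in C/+Lop minus GF (0.09 to 0.43, median 0.27), where 4766 of 9862 genes did. At an unadjusted p under 0.05 there were 3 higher (11.2% of all genes). Values of an array come from the same RNA, so these 8 genes are not independent of one another.

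The mitotic kinases and Foxm1, the transcription factor of G2/M genes, were not called in any comparison. Plk1, the polo-like kinase of mitotic entry, had values of 8.33, 8.36, 7.98 and 8.93 in GF mice against 8.79, 7.99, 8.57 and 7.97 in SPF mice. They were 8.55, 8.81, 8.56 and 8.65 in C/-Lop and 8.69, 8.54, 8.54 and 8.52 in C/+Lop mice. The 8 recipient arrays were close together inside the range of the GF and SPF arrays. Its differences lay between -0.07 and 0.31 in the 6 comparisons. Foxm1 differed by -0.04 to 0.10 over its 2 probes and 6 comparisons. The 3 probes of Melk, a mitotic kinase, did not run together, from -0.53 to 0.24 in C/-Lop minus GF, and its dimmest probe was above background on 4 of 16 arrays.

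The spindle checkpoint holds anaphase until chromosomes are attached, and Cdc20 is the activator of the anaphase-promoting complex that the checkpoint restrains. The brightest of 4 Cdc20 probes had values of 9.11, 9.19, 8.99 and 9.82 in GF mice against 9.78, 9.23, 9.70 and 8.91 in SPF mice. They were 9.50, 9.63, 9.45 and 9.41 in C/-Lop and 9.75, 9.54, 9.33 and 9.22 in C/+Lop mice. All groups overlapped, and C/+Lop minus SPF was 0.06. Another Cdc20 probe was called there (0.56, limma adjusted p = 0.0355), with C/+Lop values of 7.89, 7.60, 7.56 and 7.76 above SPF values of 7.52, 6.79, 7.33 and 6.94. The 4 probes thus ran from 0.06 to 0.56 on the same arrays, and the call was lost without SPF replicate 2, SPF replicate 4 or any 1 C/+Lop array. Mad2l1, a checkpoint protein that binds Cdc20, was 0.48 higher in mean in C/-Lop and 0.44 in C/+Lop than in SPF mice, and Bub1b, the checkpoint protein BubR1, 0.08 and -0.09, and none of these passed.

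Of the kinetochore, spindle and cytokinesis genes none was called. Birc5, survivin, a subunit of the chromosomal passenger complex, had values of 8.72, 9.0, 8.54 and 9.42 in GF mice against 9.18, 8.44, 9.05 and 8.21 in SPF mice. They were 8.98, 9.61, 9.10 and 9.29 in C/-Lop and 9.65, 9.24, 9.22 and 9.30 in C/+Lop mice. By this brightest probe the C/+Lop arrays were all above the SPF arrays, by 0.63 in mean (SE 0.22, adjusted p = 0.0542), and the other 2 probes gave 0.28 and 0.60. On each of those other probes the C/+Lop and SPF arrays overlapped. Cenpa, the centromeric histone, differed by -0.01 to 0.17. Kif11, the kinesin that separates spindle poles, was 0.36 higher in mean in C/-Lop and 0.41 in C/+Lop than in GF mice (adjusted p = 0.277 and 0.140). Nusap1, a microtubule-bundling protein, had negative differences in SPF (-0.29), C/-Lop (-0.09) and C/+Lop mice (-0.28) against GF mice, led by a GF replicate 4 value of 8.84. Kif20a, a kinesin of cytokinesis, was not well above background on any recipient array, and was above it on 3 of 4 SPF and 1 of 4 GF arrays. The probe was thus kept through SPF and GF arrays alone. Its measured means were 5.13 in SPF and 4.84 in C/+Lop mice (limma adjusted p = 0.145, not called). Against the lowest signal well above background on the C/+Lop arrays the SPF mean was 1.01-fold higher, a value that leaves out sampling error. The groups overlapped, with SPF replicate 1 (4.89) below C/+Lop replicates 1 (4.97) and 2 (5.01).

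Top2a, the topoisomerase that untangles replicated chromosomes, gave the widest GF range of the best-known proliferation markers named here. Its values were 8.25, 8.47, 7.80 and 9.01 in GF mice against 9.09, 8.58, 8.75 and 7.98 in SPF mice. They were 8.47, 8.77, 8.46 and 8.92 in C/-Lop and 8.90, 8.78, 8.68 and 8.75 in C/+Lop mice. The recipient arrays lay inside the GF range of 1.22, and differences between groups were 0.06 to 0.39. For H2az1, the replacement histone H2A.Z, C/+Lop minus SPF was 0.41 (adjusted p = 0.0525), with values of 11.57, 11.58, 11.65 and 11.39 against 11.39, 11.18, 11.07 and 10.90. The lowest C/+Lop array was just above the highest SPF array. Hmgb2, a chromatin protein of dividing cells, differed by -0.07 to 0.28, and it was not called.

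Other genes of the pathway were followed in lists of 147 genes, of which 102 were tested. In SPF minus GF 6 were called higher and 7 lower, together a smaller share than the 20.5% of all genes. Cdkn1a, the p21 inhibitor of cyclin-dependent kinases, was lower in SPF mice (-0.59, limma adjusted p = 0.00896), with SPF values of 10.44, 10.10, 10.64 and 10.66 below GF values of 10.88, 11.46, 10.98 and 10.88. Ccng2, an unconventional cyclin linked to cell cycle arrest, was lower too (-0.85, adjusted p = 0.0128). In C/+Lop mice, on the same GF arrays, Cdkn1a (-0.61) and Ccng2 (-0.86) were also called lower. In C/-Lop mice neither was called, while Cdkn1a values of 10.75, 10.74, 10.67 and 10.75 were also below all GF values. Rbl2, the pocket protein p130 of resting cells, was called higher in SPF mice (0.38, adjusted p = 0.0342). The remaining D-type cyclins Ccnd2 (0.48, adjusted p = 0.00894) and Ccnd3 (0.33) were called higher in SPF mice. Ckap5, a microtubule polymerase (0.62), Nipbl, a cohesin loader (0.34), and the checkpoint protein Bub3 (0.34), named after its value was seen to complete the 6, were called higher, and the kinetochore genes Spc24 (-0.57) and Cenpk (-0.67), the S phase factor E2f3 (-0.57), the cyclin Ccne2 (-0.82) and the clamp loader subunit Rfc4 (-0.58) lower. E2f3 was also called lower, against the same GF arrays, in C/-Lop mice (-0.60, adjusted p = 0.0362), where it was the only call among the 102 genes, and in C/+Lop mice (-0.55, adjusted p = 0.0300). None of 8 checkpoint kinases and phosphatases was called.

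Genes of the replication fork and of nucleotide synthesis were also counted as a list. In C/+Lop minus SPF 7 of 21 were called higher (9.26% of all genes) and 0 lower. Among the 7 were Rfc4 (0.65), the single-strand binding subunit Rpa3 (0.50) and the polymerase delta subunit Pold2 (0.38). Other scalings and leaving out arrays were examined for the members only. How far the calls of this list depend on them was not tested. Over all 102 genes of the lists 9 were called higher and 4 lower in C/+Lop minus SPF, where 21.1% of all genes were called. Of the 8 condensin and cohesin genes 0 were called higher and 2 lower there. On the same arrays 7 of 10 smooth muscle markers were called lower in C/+Lop than in SPF mice, and their part in these calls was not tested. Rpa3 had values of 10.52, 10.51, 10.54 and 10.56 in C/+Lop mice and 10.14, 9.85, 10.01 and 10.14 in SPF mice, with no overlap. In C/-Lop minus SPF 2 of 21 were called higher (6.94% of all genes), Rpa3 (0.48) and Rpa2 (0.37). Against GF mice 0 of 21 were called in C/-Lop mice, and in C/+Lop mice Pold2 was called higher (0.43). Between recipient groups 0 of the 102 genes were called, with 1 at an unadjusted p under 0.05.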

How the data were processed

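Smooth muscle of the proximal colon was measured on 16 Illumina arrays in 4 groups of 4, assigned by the sample labels. The authors deposited, per probe and array, the mean bead intensity without background subtraction or normalization, its standard error as a signal on the same scale, the count of beads, and a detection p-value against negative controls. They also deposited normalized log2 values for 16029 of 25697 probes, which were used as an alternative and correlated at 1 with the values here (largest gap 0.0251). The submitters' processing notes name limma, and its version and the array design's genome build are not given in the sources used here. No published test of these arrays was available to follow.

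In R 4.3.3 with limma 3.58.1, neqc was run with an offset of 16 (normexp background correction based on detection p-values, quantile normalization, log2). A probe was kept if detected at p under 0.05 on 4 or more of the 16 arrays (14102 probes). A mean per group was fitted to all 16 arrays, eBayes p-values received a Benjamini-Hochberg adjustment across the kept probes (threshold 0.05), and the procedure was tested on simulated data. There 50 probes were changed at each size in SPF against GF, and 2% of true log2 changes of 0.25 were called, 34% of 0.5 and 84% of 1. A gene that is not called may thus still differ by such small amounts. Probes were named through the platform table (15091 of 15096 matched by Entrez identifier to GRCm38.p6 symbols, where H2afz is H2az1), and each gene is given by its brightest kept probe. Intervals are 95% intervals.

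Genes named are those called in a comparison, or else the 3 with the smallest p in each direction, the highest mean in each role, the best-known proliferation markers and those whose probes disagree. In the other lists they are up to 3 with the smallest p. The members and lists were chosen with earlier results of these data known. Alternatives replaced 1 choice at a time: cyclic loess, median scaling, no background correction, the values the authors normalized, no filter or detection on 12 of 16 arrays, only the groups compared, a replicate block, array weights, covariates for Xist or the epithelial level, a Student t-test per probe (the methods' t-test, named there for the study's remaining data), the mean of a gene's probes, and arrays left out.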

Additional observations from a re-analysis of the deposited data

Results flagged for a closer look

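Of 136 sets of 4 arrays (34 genes in 4 groups), 4 held an array whose gap to the nearest of the others took up more of the group's range than Dixon's 95% critical value for 4 samples. Chance flags about 1 in 20 such groups. Mcm2 stood at 7.71 on SPF replicate 1, with the other SPF arrays at 7.37 to 7.43. Rrm2 stood at 5.55 on C/-Lop replicate 1, with the others at 6.29 to 6.30. Tk1 stood at 8.54 on C/+Lop replicate 2, with the others at 8.83 to 8.85. Plk1 stood at 8.69 on C/+Lop replicate 1, with the others at 8.52 to 8.54. SPF replicate 1 was also the highest SPF array, and C/-Lop replicate 1 the lowest C/-Lop array, for most of the 34 genes.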

How the results depend on the processing

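No called difference changed its sign under any alternative, and C/+Lop minus C/-Lop gave 0 called genes in all 21 alternatives. In SPF minus GF (1 called) median scaling, the replicate block, the epithelium covariate, only the 2 groups, the methods' t-test and leaving out SPF replicates 2 and 4 together each gave 0, and leaving out single arrays gave 0 to 2 (0 without GF replicate 1, GF replicate 2 or SPF replicate 2, 2 without GF replicate 3, and 1 lower in place of Ccnd1 without SPF replicate 1). In C/-Lop minus GF (0) array weights gave 1, and leaving out single arrays gave 0 throughout. In C/+Lop minus GF (0) no background correction, cyclic loess and the strict filter gave 1, the epithelium covariate 2 and array weights 3, and leaving out single arrays gave 0 to 2 (2 without GF replicate 2, 1 without C/+Lop replicate 4). In C/-Lop minus SPF (1) median scaling, the epithelium covariate, the methods' t-test and leaving out SPF replicates 2 and 4 together gave 0, and leaving out single arrays gave 0 to 5 (0 without SPF replicate 2 or C/-Lop replicate 4, 5 without SPF replicate 1). In C/+Lop minus SPF (2) median scaling and leaving out SPF replicates 2 and 4 together gave 0, no filter, array weights, the epithelium covariate, only the 2 groups and the methods' t-test gave 1, the strict filter gave 4, and leaving out single arrays gave 1 to 7 (1 without SPF replicate 2, SPF replicate 4 or C/+Lop replicates 1, 3 or 4, 7 without SPF replicate 1). The cause was not tested. Of single calls, Tyms in C/+Lop minus SPF passed in 20 of 22 alternatives (adjusted p from 0.00423 to 0.0705), Tyms in C/-Lop minus SPF in 15 of 22 (0.0143 to 0.188), Ccnd1 in SPF minus GF in 12 of 22 (0.0184 to 0.493) and Cdc45 in C/+Lop minus SPF in 8 of 22 (0.0106 to 0.285). Over 21 pairs with the same replicate number the correlation of deviations from group means ran from -0.55 to 0.36, with 3 over 0.1. Between same-numbered C/-Lop and C/+Lop arrays it was 0.02, 0.05, 0.18 and 0.36 on replicates 1 to 4. Whether these arrays were matched was not tested, and the main fit took arrays as unpaired. Xist, which is transcribed from the inactive X chromosome, was at 6.64 to 7.01 on SPF replicate 4 and, in both recipient groups, on replicates 2 and 3, and was under 5 elsewhere, so sex was not balanced between groups. Probes near background, such as those of Pcna, Melk and Kif20a, limit what could be seen, and 4 arrays a group leave wide intervals.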
